A study of Mus musculus with 12 samples.

Results

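Colon tissue of Glul f/f mice that received dextran sulfate sodium (DSS) was compared with colon tissue of Glul f/f mice on water, across all genes measured. The comparison was taken from the genotype and treatment labels alone and holds 6 of the 12 libraries of the study, 3 on DSS (WT_DSS 1, 2 and 4) and 3 on water (WT_H2O 1, 2 and 3). It covers 23263 tested genes of 40050 listed. The other 6 libraries come from Glul∆Lyz2 mice, in which Glul is deleted in myeloid cells, 3 on water (KO_H2O) and 3 on DSS (KO_DSS). Both groups compared here carry the floxed Glul allele without the Lyz2-driven deletion. The labels give their genotype as WT, while the design text describes them as Glul flox/flox littermates of the knockout mice, so they are littermate controls and not mice with unmodified Glul alleles. Age, sex, DSS concentration and length of treatment are absent from the labels used here. Whether a library stands for 1 animal is not stated, so p-values reflect only how these samples vary, which may be technical.

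DSS is a sulfated polymer given in drinking water that injures the colon lining and lets bacteria of the gut reach the tissue beneath. The epithelium of the colon is renewed from stem cells at the base of crypts and holds absorptive colonocytes, mucus-secreting goblet cells, hormone-secreting enteroendocrine cells and chemosensory tuft cells. Interferons, secreted by immune and epithelial cells, act through cell surface receptors and transcription factors to raise guanylate-binding proteins, immunity-related GTPases, antiviral proteins and the machinery that presents antigen on MHC molecules.

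Whole tissue RNA was sequenced, with 27088540 to 36715740 reads per water library and 30385710 to 30539901 per DSS library. A read was found for 30524 to 32051 genes on water and for 26412 to 30762 on DSS. Small structural RNAs took 4.54% to 9.40% of reads on water and 1.97% to 4.19% on DSS, so the groups did not overlap in that share. The 12 markers of colon epithelium were all among the tested genes and summed to 1037120 to 1189090 normalized counts on water and 349833 to 631424 on DSS, which fits the labelled tissue. Muc2, the gel-forming mucin of goblet cells, was the largest member of the sum in all 6 libraries. No pair of replicates agreed within sampling noise. The first principal component of the 6 libraries held 45.2% of the variance and placed WT_DSS 1 and WT_DSS 2 at 124 and 111, the water libraries between -97.8 and -66.7, and WT_DSS 4 between them at 9.36. WT_DSS 4 thus lay nearest to the water group.

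One water library also stood apart in genes that mark position along the gut. Values of single genes are normalized counts, given in the order of libraries 1, 2 and 3 on water and 1, 2 and 4 on DSS. Hoxa13, a transcription factor of the hind end of the gut, had 1061, 1082 and 23.1 on water and 3240.3, 2191 and 2879 on DSS. Hoxb13, of the same group, had 155, 266 and 0 on water and 2513, 2409 and 51.9 on DSS, and Hoxd13 had 0, 0 and 2.47 on water and 2016, 285 and 0 on DSS. WT_H2O 3 was thus the lowest water library for Hoxa13 and Hoxb13, and WT_DSS 4 the lowest DSS library for Hoxb13 and Hoxd13. In the same WT_H2O 3, Car1, a carbonic anhydrase of colonocytes, stood at 10468, 10415 and 159783 across the 3 water libraries, and Cyp4b1, a cytochrome P450, at 113, 193 and 2948. None of the 10 Hox genes of the list passed the test and their median log2 change was 2.03. The part that position along the colon has in any change given here was not tested.

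**Figure D1:**
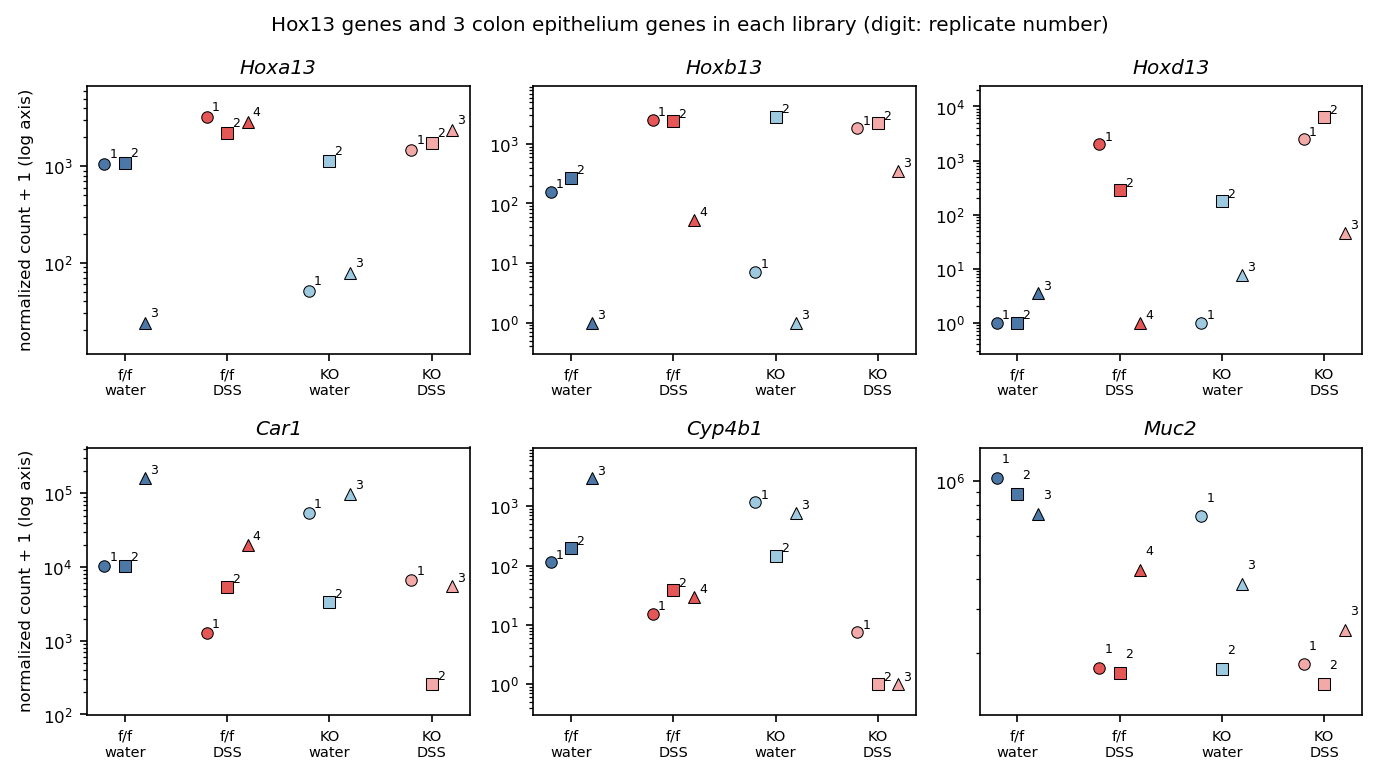
Normalized counts plus 1 on a log axis of 3 Hox13 genes and of Car1, Cyp4b1 and Muc2 in each of the 12 libraries, with the replicate number beside each point and the 4 groups on the x axis (KO is the Glul knockout). WT_H2O 3 is low for Hoxa13 (23.1) and Hoxb13 (0) and high for Car1 (159783), and WT_DSS 4 is at 0 for Hoxd13.

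Of the 23263 tested genes, 503 rose on DSS and 600 fell in the f/f colons at an adjusted p under 0.05, which is 4.74% of the tested genes (2.16% higher and 2.58% lower). These calls are from limma with Benjamini-Hochberg adjustment over all tested genes, as are all adjusted p-values given here. The shares of 2.16% and 2.58% are the ones to set beside each count of list members that rose or fell. The change was at least 2-fold for 424 of the genes that rose and 552 of those that fell, and at least 16-fold for 52 and 33. In each called gene the DSS libraries lay wholly above or wholly below the water libraries, which held for 34.1% of all tested genes. The median log2 change was -0.02 over all tested genes, 1.56 among genes that rose and -1.52 among genes that fell. Protein-coding genes made up 61.8% of the genes that rose, 90.2% of those that fell and 65.8% of all tested genes. The colon is a mixture of cells, and fewer cells of a type and less RNA per cell cannot be told apart in these data.

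The knockout colons shared no library with this comparison. All libraries entered 1 fit with a common estimate of spread, so the calls of the genotypes are not independent of each other. In the knockout colons 501 of the 503 and 599 of the 600 genes had a log2 change of the same sign. The share of all tested genes with the same sign is not given here. The same call was made in the knockout for 372 of the genes that rose, which is 74.0% of the f/f list and 32.01% of the 1162 genes that rose in the knockout. It was made for 401 of the genes that fell, which is 66.8% of the f/f list and 30.2% of the 1328 that fell in the knockout, where 10.7% of tested genes were called. No gene called in f/f passed in the opposite direction in the knockout. A test of the difference between the genotypes in their DSS response, in the same limma fit, called 0 genes, with a smallest adjusted p of 0.99977 and 640 genes (2.75%) at an unadjusted p under 0.05. The number of calls depended strongly on single libraries. Left out 1 at a time, the f/f libraries gave 14 calls without WT_H2O 1, 27 without WT_H2O 2, 240 without WT_H2O 3, 104 without WT_DSS 1, 558 without WT_DSS 2 and 746 without WT_DSS 4, and 492 calls were made without KO_H2O 3. No called gene changed sign in these fits, which was fixed in advance because the groups of every called gene did not overlap. With upper-quartile scaling 670 genes rose and 401 fell, and the median of all genes moved by 0.104, so the share of higher calls was 62.6% against 45.6%.

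**Figure D2:**
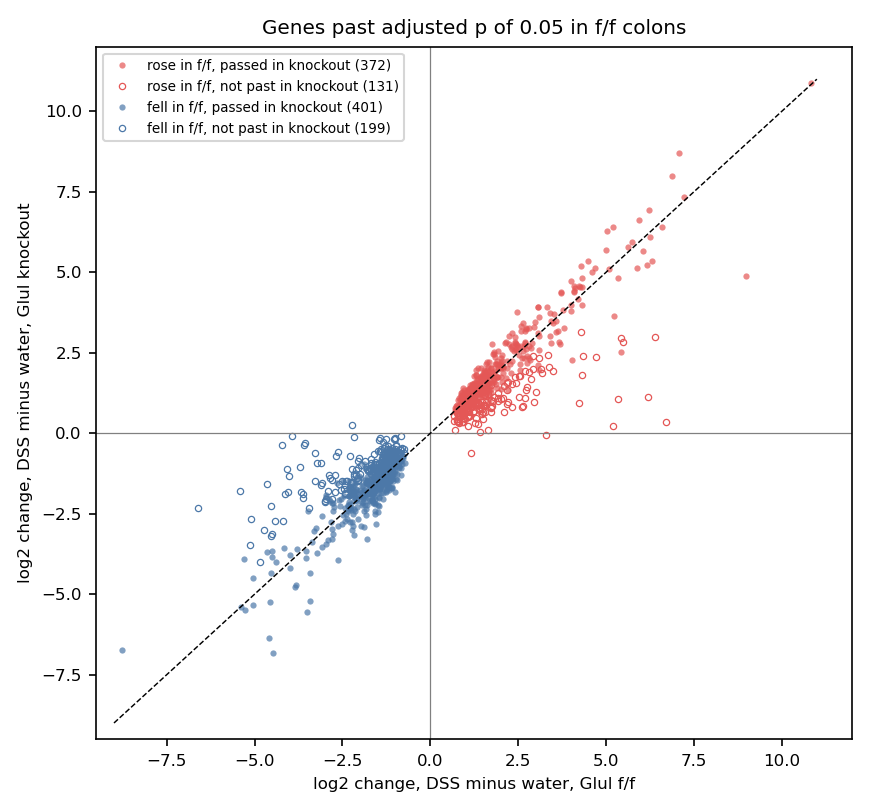
Log2 change on DSS in the Glul f/f colons (x axis) and in the Glul knockout colons (y axis) for the 1103 genes that passed in f/f, with filled points for the 372 and 401 genes that passed the same way in the knockout. Nearly all points lie in the lower left and upper right quadrants, and the dashed line marks equal change.

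Genes that rose and genes that fell differed in base composition. Among protein-coding genes the median GC share of the longest annotated transcript was 43.6% for genes that rose, 56.5% for genes that fell and 49.8% for all tested. When these genes were split into 5 bins of equal size by GC share, 5.29% of the bin with the lowest share rose and 0.392% fell, and 0.163% of the bin with the highest share rose and 10.03% fell. The median log2 change passed from 0.38 in the lowest bin to -0.71 in the highest, and from 0.38 to -0.91 in the knockout colons. Each DSS library showed the trend, with a median log2 deviation from the water mean of 0.50, 0.28 and 0.42 in the lowest bin and -0.74, -0.50 and -0.73 in the highest for WT_DSS 1, 2 and 4. The 3 water libraries stayed between -0.04 and 0.02 in these bins. When a smooth curve of this trend was subtracted from each library, a step chosen after seeing the data, 194 of 21850 genes with a known transcript passed (114 higher and 80 lower) against 972 of the same genes without the correction. The number of calls that remained with this correction is given for each group of genes, and the part of the trend in them was not tested.

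**Figure D3:**
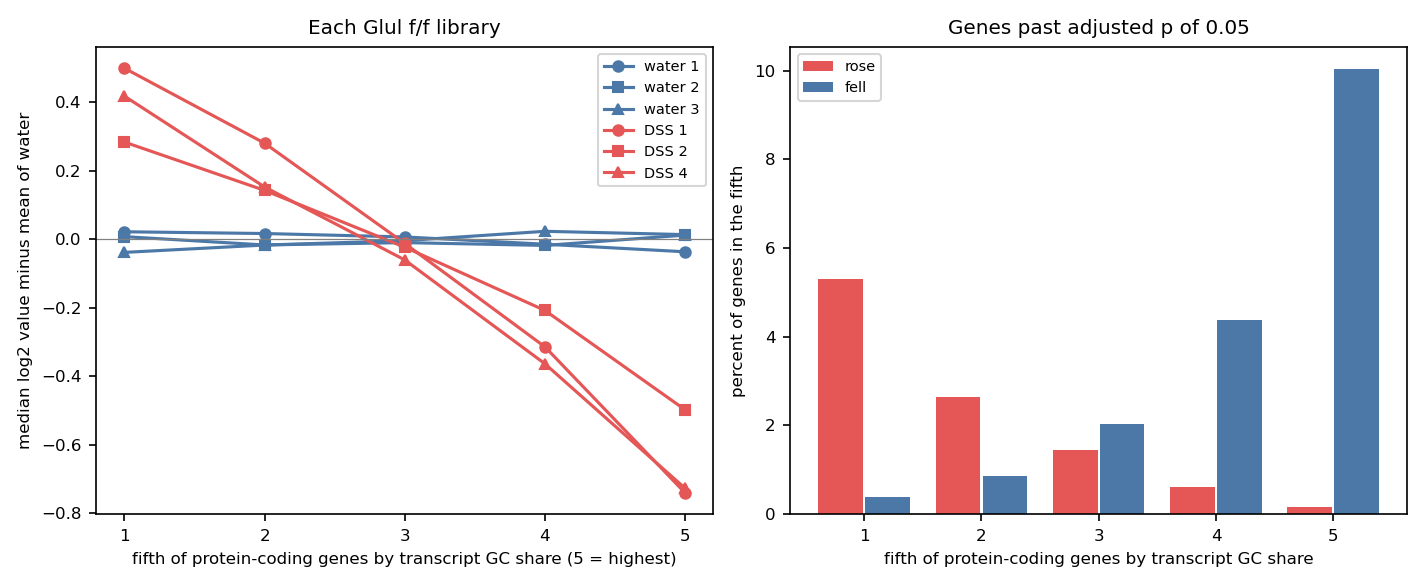
Protein-coding genes in 5 bins of transcript GC share, with the median log2 value of each f/f library relative to the water mean on the left and the percent of genes that rose or fell on the right. The DSS libraries fall steadily from the lowest to the highest bin while the water libraries stay near 0, and the percent that fell climbs to 10.03% in the highest bin.

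Interferon-inducible GTPases had the largest list medians. Immunity-related GTPases attack the membranes around intracellular microbes, and 10 of their 11 tested members rose, with a median log2 change of 5.73 beside -0.02 for all genes. Guanylate-binding proteins coat such membranes and bacteria in the cytosol, and 8 of 11 rose, with a median of 3.58. The 3 that did not pass were Gbp2b, Gbp4 and Gbp11, with adjusted p from 0.0881 to 0.136, and in the other family it was Irgq, at log2 change -0.39 ± 0.25, adjusted p = 0.36. The 11 immunity-related GTPase genes summed to 2913 to 4144 normalized counts on water and 12783 to 90966 on DSS, and the 11 guanylate-binding protein genes to 1279 to 1758 and 9152 to 73454.

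Irgm2, a regulator of the other immunity-related GTPases (chromosome 11, 58199618 to 58222782, plus strand), had 616, 601 and 636 on water and 10599, 3704 and 6982 on DSS. Its DSS libraries were well above the narrow range on water, and it rose with a log2 change of 3.39 ± 0.48 (adjusted p = 0.0123). Iigp1, an effector GTPase, had 105, 54.3 and 124 on water and 24079, 2248 and 12331 on DSS and rose by 6.60 ± 0.94 on the log2 scale (adjusted p = 0.0123). Gm12250, which encodes Irgb10, an effector that acts on bacterial membranes, had 15.7, 12.4 and 59.3 on water and 3445, 391 and 1486 on DSS (log2 change 5.73 ± 0.87, adjusted p = 0.0136). Tgtp2, a GTPase first described in T cells, had 76.8, 53 and 95.6 on water and 8487, 739.9 and 2494 on DSS (log2 change 5.08 ± 0.88, adjusted p = 0.018). For all 4 genes WT_DSS 1 was the highest library and WT_DSS 2 the lowest of the DSS group, while no DSS library came near the water range.

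Among the guanylate-binding proteins, Gbp7 (chromosome 3, 142530342 to 142550149, plus strand) had 262, 256 and 209 on water and 5846, 1391 and 2995 on DSS, a log2 change of 3.58 ± 0.54 (adjusted p = 0.0131). Gbp5, which promotes inflammasome activation, had 82.3, 139.6 and 34.6 on water and 2948, 549.7 and 646 on DSS (log2 change 3.77 ± 0.69, adjusted p = 0.0217). Gbp2 had 405, 773 and 221 on water and 38080.4, 3809.8 and 3806 on DSS (log2 change 4.32 ± 0.88, adjusted p = 0.0287), and WT_DSS 1 was far above the other DSS libraries. Gbp2 and Tgtp2 were named after their values were seen. The order WT_DSS 1 highest and WT_DSS 2 lowest recurred in Gbp7 and Gbp5. Gbp6, Gbp8 and Gbp10 also rose, but they overlap neighbouring family members on the genome, Irgm2 overlaps Igtp, and Tgtp1 and Tgtp2 are near-identical, so their single values are uncertain. In the knockout colons all 18 called GTPase genes rose as well, with list medians of 5.35 and 3.49. Of the 18 calls, 13 remained with the GC correction, where the medians were 5.56 and 3.31. When single libraries were left out, 0 without WT_H2O 1 or WT_H2O 2, 4 without WT_DSS 1 and 9 without WT_H2O 3 remained.

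Promoters of 4 GTPase genes are shown because the genes are among the genes with the smallest p and hold letters that interferon-activated factors are known to bind. The promoter table of RefSeq (GRCm38.p6) holds 250 bases before to 50 after each start, and 26 of the 41 called members of the interferon, GTPase and MHC class I lists matched it, with 30 promoters. The core of the interferon-stimulated response element (GAAA, any 2 bases and GAAA again), bound by interferon regulatory factors, was searched on both strands and found in 18 of the 30 promoters (60.0%), against 3.44% of all 32851 promoters in the table. The motif TTCNNNGAA, the core of the gamma interferon activated site, reads the same on both strands and was found in 10 of 30 (33.3%), against 8.30% of all. Among 50 promoters of members that were not called, 18 held the first motif and 9 the second. The following 4 promoters, of the 4 called genes with the smallest p among those that matched and hold both motifs, run 5′ to 3′ on the strand of the gene, with matches to either motif in capitals. They are Irgm2 at chr11:58214727-58215026 on the plus strand, Gbp7 at chr3:142530086-142530385 on the plus strand, Gm12250 at chr11:58183593-58183892 on the plus strand and Tgtp2 at chr11:49064163-49064462 on the minus strand.
Irgm2: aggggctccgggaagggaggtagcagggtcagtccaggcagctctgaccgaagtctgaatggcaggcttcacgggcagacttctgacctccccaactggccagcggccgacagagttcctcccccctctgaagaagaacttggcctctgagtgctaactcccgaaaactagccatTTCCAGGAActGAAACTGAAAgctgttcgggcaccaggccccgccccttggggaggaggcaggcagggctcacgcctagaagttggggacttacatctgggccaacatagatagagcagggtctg
Gbp7: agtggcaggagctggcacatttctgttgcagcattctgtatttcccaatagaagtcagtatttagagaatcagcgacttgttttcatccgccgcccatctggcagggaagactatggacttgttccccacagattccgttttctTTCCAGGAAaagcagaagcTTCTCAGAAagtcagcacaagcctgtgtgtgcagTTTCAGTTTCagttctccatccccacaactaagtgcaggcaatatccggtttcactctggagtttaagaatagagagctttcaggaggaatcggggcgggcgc
Gm12250: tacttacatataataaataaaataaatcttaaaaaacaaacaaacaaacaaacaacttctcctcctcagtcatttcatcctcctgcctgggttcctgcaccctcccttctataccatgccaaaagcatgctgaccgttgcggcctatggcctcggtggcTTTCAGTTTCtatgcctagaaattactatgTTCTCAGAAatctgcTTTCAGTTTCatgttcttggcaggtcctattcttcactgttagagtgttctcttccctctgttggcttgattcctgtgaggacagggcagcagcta
Tgtp2: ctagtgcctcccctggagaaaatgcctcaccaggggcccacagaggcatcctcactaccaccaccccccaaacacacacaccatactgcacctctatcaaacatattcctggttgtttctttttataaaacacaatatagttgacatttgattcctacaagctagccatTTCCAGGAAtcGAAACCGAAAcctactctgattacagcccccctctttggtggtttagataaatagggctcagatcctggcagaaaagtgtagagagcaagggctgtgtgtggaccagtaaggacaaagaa
In Irgm2 a TTCNNNGAA match began 75 bases before the start and a response element match 64 bases before it. In Tgtp2 the 2 matches began 81 and 70 bases before the start, in the same order. Gbp7 held 2 TTCNNNGAA matches and Gm12250 held 1, and both had the response element core on the opposite strand. A match is a description of the letters and does not show binding.

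**Figure D4:**
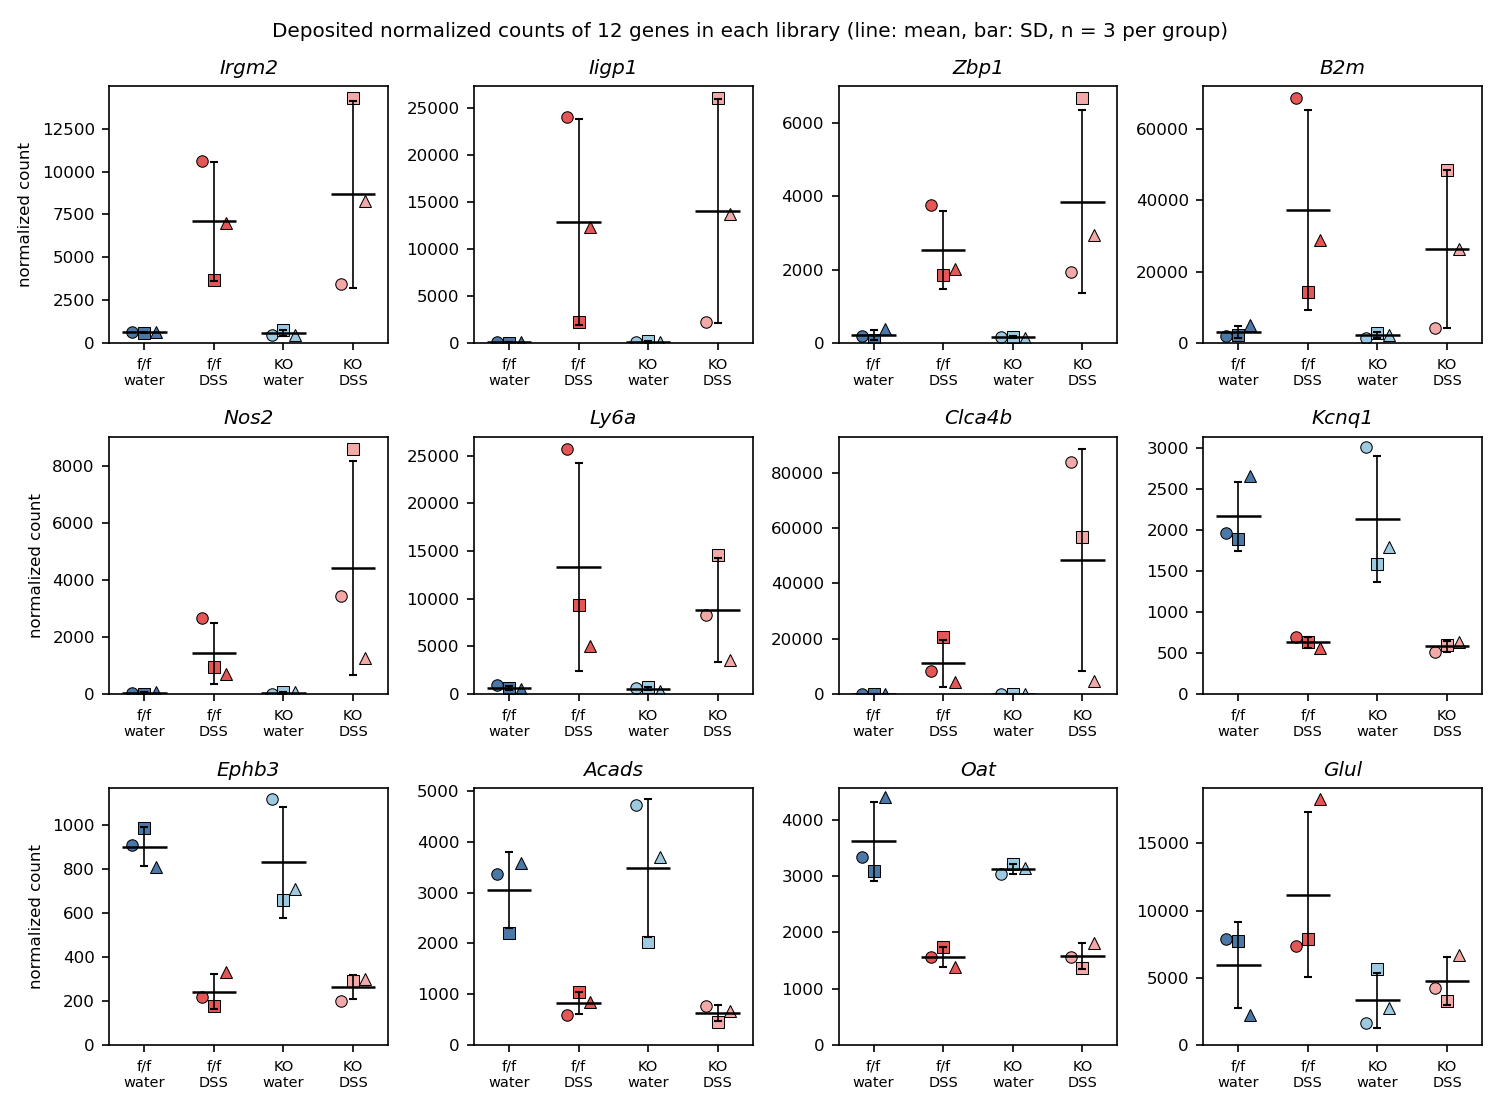
Normalized counts of 12 genes in each of the 12 libraries, with circles, squares and triangles for libraries 1, 2 and 3 (4 for f/f on DSS), the group mean as a line and the SD as a bar (n = 3 per group). In f/f colons Irgm2, Iigp1, Zbp1, B2m, Nos2, Ly6a and Clca4b rose, Kcnq1, Ephb3, Acads and Oat fell, and the groups of Glul overlap.

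Of 36 other antiviral interferon-stimulated genes 15 rose (41.7% beside 2.16% of all genes) and 0 fell, with a median log2 change of 2.17. Zbp1, a sensor of Z-form nucleic acids that can start necroptosis, had 181, 91.5 and 368 on water and 3749, 1842 and 2018 on DSS (log2 change 3.71 ± 0.52, adjusted p = 0.0123). The lowest DSS library was above the highest water library by a wide margin. Parp9 and Dtx3l, partner enzymes in ADP-ribosylation and ubiquitin transfer that overlap on opposite strands, rose by 2.43 ± 0.40 and 2.25 ± 0.38 on the log2 scale (adjusted p = 0.0164 and 0.0175). Ifit1bl1, of the family that binds viral RNA, rose by 3.05 ± 0.53 (adjusted p = 0.018). Several classic members did not pass. Mx1, an antiviral GTPase, had 227, 153 and 223 on water and 1476, 335 and 963 on DSS (adjusted p = 0.0745), and Isg15, a ubiquitin-like modifier, had 33.3, 11 and 52.7 on water and 174, 32.4 and 271 on DSS (adjusted p = 0.198), with 1 DSS library inside the water range for Isg15. Both were named after their values were seen.

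Of 20 genes for interferon receptors, kinases, transcription factors and feedback, 2 rose, with a list median of 0.73. Of these Stat2, a transcription factor of type I interferon signalling, had 797, 709.9 and 1159 on water and 4456, 1894 and 5659 on DSS (log2 change 2.06 ± 0.44, adjusted p = 0.0315). Cd274, which encodes the checkpoint ligand PD-L1, was at 104, 94.2 and 319.7 on water and 1963, 333 and 830.1 on DSS and missed the threshold (adjusted p = 0.0531). Of 7 Schlafen genes, which restrain immune cell growth or viral translation, 3 rose. Slfn1 had no read on water and 88.3, 68.1 and 32.1 normalized counts on DSS. That is at least 25.8-fold higher when each water library is set to 3 reads before scaling. Slfn5 and Slfn8 rose by 2.82 ± 0.61 and 2.80 ± 0.60 (adjusted p = 0.0321 and 0.0315). Of the 20 calls in these 3 lists, 18 were also made in the knockout and 12 remained with the GC correction. With single libraries left out, 0 without WT_H2O 1, 1 without WT_H2O 2, 2 without WT_DSS 1, 10 without WT_H2O 3 and 12 without WT_DSS 4 remained.

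Antigen presentation on MHC class I rose in 6 of 19 genes (beside 2.16% of all genes), with a median log2 change of 1.06. Nlrc5, the transactivator of class I genes, had 157, 118 and 251 on water and 4646, 874 and 3179 on DSS (log2 change 3.81 ± 0.62, adjusted p = 0.0157). B2m, the light chain of class I molecules, had 2085, 2302 and 4943 on water and 68613, 14340 and 28816 on DSS (log2 change 3.41 ± 0.79, adjusted p = 0.0372), and WT_DSS 1 held the highest value. Tap1, a peptide transporter subunit that overlaps Psmb9 on the opposite strand, rose by 2.65 ± 0.47 (adjusted p = 0.0193). Psmb8, an immunoproteasome subunit, rose by 2.67 ± 0.59 (adjusted p = 0.034) and Psme1, a proteasome activator subunit, by 2.02 ± 0.45 (adjusted p = 0.0342). The heavy chain gene H2-K1, named after its values were seen, had 4011, 4103 and 9593 on water and 18143, 8785 and 9290.4 on DSS and did not pass (adjusted p = 0.275). For MHC class II, 1 of 11 genes rose, the lysosomal protease gene Ctss, with 1926, 2141 and 5107 on water and 11484, 7900.3 and 7047 on DSS (log2 change 1.64 ± 0.42, adjusted p = 0.0481). Ciita, the class II transactivator, had 370.0, 160.3 and 333 on water and 3333, 1043 and 1190 on DSS (adjusted p = 0.0508), and Cd74, the invariant chain, had 1798, 1143 and 1277 on water and 27866, 8437 and 4659 on DSS (adjusted p = 0.0673). The groups of both genes were apart, but the DSS libraries spread widely. The class II median was 1.92, and 1.13 in the knockout. Of the 7 calls, 6 were made in the knockout and 3 remained with the GC correction, and 0 without WT_H2O 1, WT_H2O 2 or WT_DSS 1, 2 without KO_H2O 3 and 4 without WT_H2O 3 or WT_DSS 4 remained when single libraries were left out.

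Of 21 genes of necroptosis, pyroptosis and caspases, 3 rose (14.3% beside 2.16% of all genes) and 1 fell (4.76% beside 2.58%), with a median of 1.07. Besides Zbp1 those that rose included Mlkl, the pore-forming executor of necroptosis, at 303, 239 and 443 on water and 2128, 781 and 1278 on DSS (log2 change 2.01 ± 0.44, adjusted p = 0.0329). Ninj1, which ruptures the membrane late in lytic death, fell from 296, 206 and 181 to 34.5, 96.3 and 50.2 (log2 change -2.00 ± 0.39, adjusted p = 0.0264). Of 23 Toll-like and NOD-like receptor genes 1 rose (4.35%), Tlr3, the sensor of double-stranded RNA, at 789, 471 and 676 on water and 1849, 1475 and 1962 on DSS (log2 change 1.47 ± 0.29, adjusted p = 0.0275). Tlr5, the flagellin receptor, had lower values on DSS that did not pass (log2 change -1.69 ± 0.58, adjusted p = 0.105). Of these 5 calls, 4 were made in the knockout and 1 remained with the GC correction, that of Zbp1, and 0 without WT_H2O 1, 1 without WT_H2O 2, WT_H2O 3 or WT_DSS 1 and 2 without WT_DSS 4 remained when single libraries were left out.

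Of 15 tested inflammatory cytokines and mediators 4 rose and 0 fell, with a median of 0.37. Nos2, the inducible nitric oxide synthase, had 34.2, 14.4 and 61 on water and 2653, 938 and 688 on DSS (log2 change 5.21 ± 0.81, adjusted p = 0.0148). Il1rn, which blocks the interleukin 1 receptor, had 159, 148 and 155 on water and 1735, 3686 and 819 on DSS (log2 change 3.49 ± 0.64, adjusted p = 0.0209). Il1b, the cytokine whose effect it opposes, had 37, 17.2 and 13.2 on water and 162, 132 and 74.9 on DSS (log2 change 2.46 ± 0.57, adjusted p = 0.0372), and Tnf, the central inflammatory cytokine, had 15.7, 24.1 and 39.6 on water and 253, 82.2 and 101 on DSS (log2 change 2.33 ± 0.50, adjusted p = 0.0315). In all 4 the DSS libraries lay above every water library, as in every called gene that rose. Of 24 chemokine genes 2 rose (beside 2.16% of all genes), Cxcl9 and Cxcl10, interferon-induced attractants of T cells. Cxcl10 had 19.4, 39.2 and 10.7 on water and 803, 352 and 252 on DSS (log2 change 4.29 ± 0.70, adjusted p = 0.0157) and Cxcl9 13.9, 4.13 and 14 on water and 976, 124 and 309 on DSS (adjusted p = 0.0391).

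Of 22 epithelial antimicrobial and acute phase genes 1 rose, beside 2.16% of all genes. It was Pglyrp1, a peptidoglycan-binding protein, at 1765, 1569.8 and 2046 on water and 3459.9, 5465 and 3225 on DSS (log2 change 1.14 ± 0.27, adjusted p = 0.0391). Pigr, the transporter of IgA into the lumen, was at 64753, 58898 and 70088 on water and 116339, 146554 and 141089 on DSS and missed the threshold (adjusted p = 0.0558). Among 14 NADPH oxidase genes, Duoxa1, a maturation factor of the epithelial dual oxidases, rose from 23.1, 19.3 and 22.2 on water to 136, 154 and 268 on DSS (log2 change 2.99 ± 0.49, adjusted p = 0.0157). Cybb, the catalytic subunit of the phagocyte oxidase, rose from 269, 111 and 133 on water to 1017, 832 and 446 on DSS (log2 change 2.18 ± 0.55, adjusted p = 0.0479). Noxa1, an activator of the epithelial oxidase Nox1, fell from 1672, 1373 and 1715 on water to 423, 509 and 670.4 on DSS (log2 change -1.59 ± 0.23, adjusted p = 0.0123). Among 11 tryptophan and kynurenine genes Wars, the interferon-inducible tryptophanyl-tRNA synthetase, rose from 1205, 2201 and 917 on water to 6323, 3784 and 4518 on DSS (log2 change 1.82 ± 0.44, adjusted p = 0.0425). Ido1, the first enzyme of the kynurenine route, was at 19.4, 14.4 and 99.7 on water and 10494, 129.5 and 1413 on DSS, with DSS libraries that spanned a wide range, and did not pass (adjusted p = 0.105). None of 16 complement genes (median 0.97) and none of 19 prostaglandin and leukotriene genes (-0.13) passed. Of the 11 calls in this and the preceding paragraph, 9 were made in the knockout and 6 remained with the GC correction, and 0 without WT_H2O 1, 2 without WT_H2O 2 or WT_DSS 1, 5 without WT_H2O 3 and 7 without KO_H2O 3 or WT_DSS 2 remained when single libraries were left out.

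Of 21 monocyte and macrophage markers 2 rose (9.52% beside 2.16% of all genes), Cybb and Mpeg1, the latter a pore-forming protein of phagocytes at 890.0, 403 and 556 on water and 3459.9, 3008 and 1709 on DSS (log2 change 2.16 ± 0.50, adjusted p = 0.0372), and the list median was 0.47. The 21 markers summed to 7039.8 to 10209.6 normalized counts on water and 8609 to 15738 on DSS, so the ranges overlapped. Lyz2, the lysozyme gene whose promoter drives the knockout, had 2482, 1506 and 1673 on water and 1955, 3809 and 693 on DSS (log2 change -0.09 ± 0.63, adjusted p = 0.944, exact two-sided permutation p = 1), so its groups overlapped. Neither macrophage call remained with the GC correction, and 0 without WT_H2O 1, WT_H2O 2, WT_H2O 3, KO_H2O 3, WT_DSS 1 or WT_DSS 2 and 1 without KO_DSS 1 or KO_DSS 2 remained when single libraries were left out. Neutrophil markers had 8 of 18 members above the filter and 0 calls. Ly6g, a neutrophil surface protein, had 39.8, 33.7 and 0 on water and 898, 2835 and 178 on DSS (adjusted p = 0.0658), while S100a9, a calprotectin subunit abundant in neutrophils and named after its values were seen, had 0, 0 and 0 on water and 0, 0 and 3.29 on DSS. All 18 markers, those under the filter included, summed to 38.7 to 126 normalized counts on water and 331 to 3046 on DSS. Ly6g alone gave 898, 2835 and 178 of the DSS sums, so they mostly describe that gene. In the knockout 6 of these 8 markers rose, beside 1162 of all 23263 tested genes. The list median there was 4.25 against 1.62 here, and no gene passed the test of the difference. The filter used the mean over all 12 libraries, so markers read mainly in the knockout DSS libraries could enter the list. S100a9, Clec4e, S100a8 and Trem1 averaged 0.549, 2.89, 6.52 and 9.49 over the 6 f/f libraries, under the filter's 10. These medians and the 6 of 8 therefore cannot tell whether the genotypes differ. All 24 T and NK cell markers summed to 305 to 1000.4 normalized counts on water and 993 to 1780.5 on DSS, with 0 of the 22 tested called and a median of 1.17 (-0.69 in the knockout). B and plasma cell markers (0 of 17, median 0.48), dendritic cell markers (0 of 10, 0.33) and mast cell markers (0 of 3, 3.03) had no calls.

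Of 21 tested stem cell genes of the Wnt-driven crypt base 7 fell (33.3% beside 2.58% of all genes) and 0 rose, with a median log2 change of -1.08. Ephb3, a receptor that positions cells along the crypt, had 911, 986 and 808 on water and 216, 179 and 333 on DSS (log2 change -1.93 ± 0.29, adjusted p = 0.0136). Ascl2, the transcription factor that maintains intestinal stem cells, had 48.1, 73.6 and 47 on water and 0, 0 and 11.5 on DSS (log2 change -4.59 ± 0.96, adjusted p = 0.0303), with 2 DSS libraries without a read. Tnfrsf19, a Wnt target receptor, fell by 1.71 ± 0.32 (adjusted p = 0.0235) and Lrig1, which restrains growth factor receptors in stem cells, by 1.08 ± 0.23 (adjusted p = 0.0309). Lgr5, the best known marker of these cells, named after its values were seen, had 398, 440.2 and 225 on water and 43.7, 29.1 and 127 on DSS and did not pass (adjusted p = 0.215). The others that fell were Znrf3, Hopx and Slc12a2, and they did not pass in the knockout, where Ephb3, Ascl2, Tnfrsf19 and Lrig1 also fell. All 24 listed genes, with 3 under the filter, summed to 44750.2 to 64044 normalized counts on water and 42450.4 to 69504 on DSS, and the ranges overlapped. Aqp4, a water channel named after its values were seen, was a large part of these sums. It had 19996, 19424.5 and 1395 on water and 24396, 54623 and 25131 on DSS, against the direction of the list (adjusted p = 0.295). The sums therefore do not describe the other members.

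Genes of regenerating epithelium rose in 2 of 24 tested members (beside 2.16% of all genes), with a median of 0.75. Ly6a, which encodes Sca-1, a surface protein of regenerating epithelium that blood and endothelial cells also carry, had 915, 607 and 511 on water and 25699, 9367 and 5024 on DSS (log2 change 4.02 ± 0.59, adjusted p = 0.0125). Sprr2a3, a small proline-rich protein, had 1575, 1905 and 1786 on water and 4209, 5417 and 3927 on DSS (log2 change 1.35 ± 0.30, adjusted p = 0.0339) and has close paralogs, so its value is uncertain. None of 11 EGF receptor ligands and receptors passed (median 0.30). Of these Areg, a growth factor of repair, had 292, 195 and 459.8 on water and 769.7, 305 and 727 on DSS and Nrg1, a stromal ligand, 742, 461 and 678 on water and 849, 2231 and 2258 on DSS (adjusted p = 0.251 and 0.101). Among 22 stromal Wnt, R-spondin and BMP factors 1 rose, beside 2.16% of all genes. It was Bmp2, a differentiation signal made near the crypt top, at 467, 412 and 467 on water and 1344, 1130.2 and 849.9 on DSS (log2 change 1.28 ± 0.25, adjusted p = 0.0275). Of the 10 calls for stem, repair and niche genes, 7 were made in the knockout, 4 remained with the GC correction and 0 without WT_H2O 1 or WT_H2O 2, 3 without WT_DSS 1 or WT_DSS 2 and 5 without WT_H2O 3 remained when single libraries were left out. None of 30 cell cycle and DNA replication genes passed (median -0.14, and 0.73 in the knockout).

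**Figure D5:**
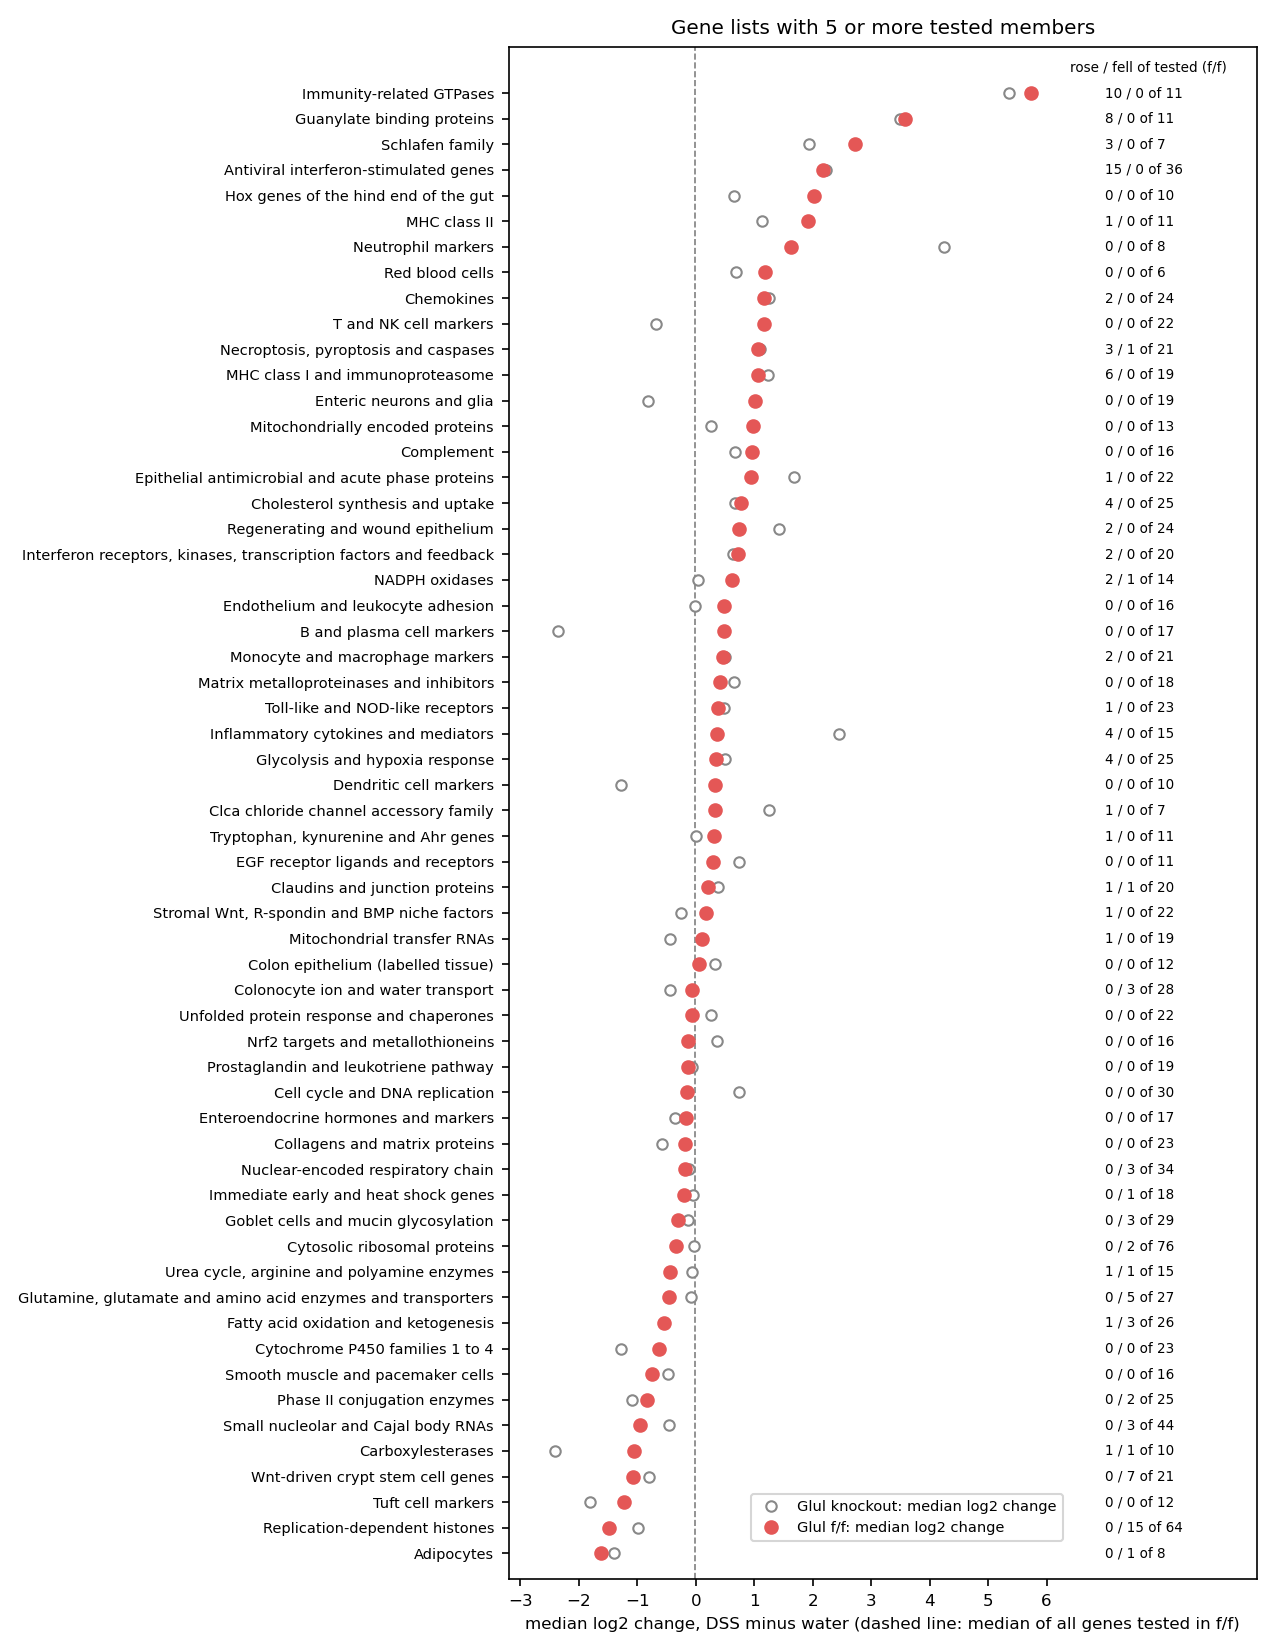
Median log2 change on DSS of each gene list with 5 or more tested members, in the f/f colons (filled) and the knockout colons (open), with the number of members that rose and fell in f/f on the right. The GTPase families lie farthest to the right, at 5.73 and 3.58, and the histone and adipocyte lists farthest to the left, at -1.49 and -1.62.

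Goblet cell and mucin glycosylation genes fell in 3 of 29 tested members (beside 2.58% of all genes), with a median of -0.30. Slc12a8, a transporter enriched in goblet cells, had 2521, 2135 and 1536 on water and 225, 383 and 779.9 on DSS (log2 change -2.31 ± 0.47, adjusted p = 0.0284). Foxa3, a transcription factor of goblet cells, had 989, 1005 and 1126 on water and 329.8, 370.4 and 567 on DSS (log2 change -1.34 ± 0.29, adjusted p = 0.0315), and Tpsg1, a membrane-anchored protease, 694, 714 and 591 on water and 219.6, 236 and 306 on DSS (log2 change -1.40 ± 0.36, adjusted p = 0.0488). Muc2 had 1027160, 887036 and 734900 on water and 173336, 164544 and 435810 on DSS. Its groups were apart, with WT_DSS 4 nearest to water, and it missed the threshold (log2 change -1.92 ± 0.51, adjusted p = 0.0533). No call in this list remained with the GC correction.

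Of 28 genes of ion and water transport by colonocytes 3 fell (beside 2.58% of all genes), with a median of -0.06 that turned to 0.04 with upper-quartile scaling. Kcnq1, a potassium channel that sustains chloride secretion, had 1967, 1884 and 2653 on water and 699.9, 633 and 565 on DSS (log2 change -1.76 ± 0.25, adjusted p = 0.0123), and it remained called with the GC correction (adjusted p = 0.0354). It overlaps the antisense RNA Kcnq1ot1, from which its reads cannot be told apart here. Kcnn4, a calcium-activated potassium channel, fell by 1.10 ± 0.27 (adjusted p = 0.0439), and Slc12a2, the basolateral carrier that loads chloride, had 15548, 14380.2 and 12474 on water and 6484, 3538 and 9271 on DSS (log2 change -1.24 ± 0.32, adjusted p = 0.0494). Guca2a, the hormone guanylin, was at 10728, 12302 and 11060.2 on water and 1455, 2012 and 3699 on DSS (adjusted p = 0.0744). Among 7 genes of the Clca chloride channel accessory family 1 rose, Clca4b, at 117, 53 and 45.3 on water and 8198, 20734 and 4173 on DSS (log2 change 7.06 ± 0.91, adjusted p = 0.00854), and it passed in each of the 12 fits that left out 1 library.

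Of 20 claudins and junction proteins, Tjp1, the scaffold ZO-1, rose from 4198, 4546 and 5258 on water to 12146, 11748 and 9370.2 on DSS (log2 change 1.25 ± 0.27, adjusted p = 0.0335), and Cldn23, a claudin, fell from 479, 581 and 634 on water to 230.5, 73.9 and 266 on DSS (log2 change -1.75 ± 0.45, adjusted p = 0.0477). Of the 9 calls for goblet, transport, Clca and junction genes, 7 were made in the knockout, 3 remained with the GC correction and 1 without WT_H2O 1, 2 without WT_H2O 2, WT_H2O 3, WT_DSS 1 or WT_DSS 2 and 3 without KO_H2O 3 remained when single libraries were left out. Tuft cell markers had a negative log2 change in 12 of 12 tested members, with a median of -1.23 (-0.84 with the GC correction), and none passed. Trpm5, their taste-pathway channel, had 666, 699.6 and 575 on water and 58, 52.3 and 312 on DSS (adjusted p = 0.0845). None of 17 enteroendocrine genes passed (median -0.16).

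Of 26 genes of fatty acid oxidation and ketogenesis 3 fell and 1 rose (beside 2.58% and 2.16% of all genes), with a median of -0.54. Acads, the short-chain acyl-CoA dehydrogenase that acts on butyrate, had 3372, 2207 and 3583 on water and 589, 1037 and 856 on DSS (log2 change -1.89 ± 0.35, adjusted p = 0.0211). Acaa2, the last enzyme of the mitochondrial cycle, had 1804, 1652 and 3357 on water and 729, 896 and 767 on DSS (log2 change -1.44 ± 0.32, adjusted p = 0.034). Ppara, the nuclear receptor that drives these genes, had 686, 635 and 1776 on water and 215, 142 and 197 on DSS (log2 change -2.33 ± 0.55, adjusted p = 0.0402), with WT_H2O 3 the highest. Acadl, the long-chain dehydrogenase, rose instead, at 1649, 1777 and 3431 on water and 9301, 8085 and 6083 on DSS (log2 change 1.84 ± 0.31, adjusted p = 0.0178).

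Of 25 genes of cholesterol synthesis and uptake 4 rose and 0 fell, with a median of 0.77. They were Hmgcs1, an early enzyme of the pathway, at 5825, 4770.5 and 3277 on water and 13337, 10524 and 11832 on DSS (log2 change 1.40 ± 0.29, adjusted p = 0.0288), Cyp51, Hsd17b7 and Sc5d, enzymes of the late steps, with log2 changes of 1.48 ± 0.31, 1.04 ± 0.25 and 1.01 ± 0.26 (adjusted p = 0.0301, 0.0403 and 0.0477). All of the 8 lipid calls were made in the knockout as well, 1 remained with the GC correction, that of Acadl, and 0 without WT_H2O 1, WT_H2O 2 or WT_DSS 1, 1 without WT_H2O 3, 3 without WT_DSS 4 and 4 without KO_H2O 3 or WT_DSS 2 remained when single libraries were left out.

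Among 25 genes of glycolysis and the hypoxia response 4 rose and 0 fell. Hif1a, the oxygen-regulated transcription factor subunit, had 1083, 1266 and 452 on water and 7063, 5699 and 4559.9 on DSS (log2 change 2.74 ± 0.59, adjusted p = 0.0321). Egln3, a prolyl hydroxylase that marks HIF for degradation and is itself induced in hypoxia, had 335, 426 and 428 on water and 1699, 1548 and 1015 on DSS (log2 change 1.81 ± 0.34, adjusted p = 0.0224). Pdk1, a kinase that limits pyruvate entry into mitochondria, and Bnip3, a mitophagy receptor, rose by 1.37 ± 0.34 and 1.66 ± 0.36 (adjusted p = 0.045 and 0.0315). The DSS and water libraries were apart in all 4, as in every called gene. The list median was 0.35, and no enzyme of the glycolytic chain itself was among the 4.

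Of 25 phase II conjugation enzymes 22 had a negative log2 change and 2 fell, among them Ugt2b36, a glucuronosyltransferase, at 31.5, 37.1 and 118 on water and 0, 0 and 9.88 on DSS (log2 change -4.57 ± 0.99, adjusted p = 0.0325). Of 10 carboxylesterases Ces1d fell from 1484, 1573 and 2475 on water to 175, 487 and 354 on DSS (log2 change -2.52 ± 0.59, adjusted p = 0.0383), and Ces2f rose from 19.4, 8.25 and 0 on water to 1672, 976 and 42 on DSS (log2 change 6.17 ± 1.46, adjusted p = 0.0404), with WT_DSS 4 far below the other DSS libraries. None of 23 cytochrome P450 genes passed (median -0.63), and Cyp4b1 was at 113, 193 and 2948 on water and 14.3, 37.4 and 28.8 on DSS (adjusted p = 0.0771). Of the 8 calls for glycolysis, conjugation and carboxylesterase genes, 5 were made in the knockout, 2 remained with the GC correction, and 0 without WT_H2O 1, WT_H2O 2, WT_H2O 3 or WT_DSS 1, 2 without WT_DSS 2 and 5 without KO_H2O 3 remained when single libraries were left out.

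Glul, which encodes glutamine synthetase (chromosome 1, 153899944 to 153909723, plus strand), had 7852, 7709 and 2261 normalized counts on water and 7372, 7895 and 18267 on DSS. WT_H2O 3 was the lowest of the 6 libraries and WT_DSS 4 the highest, and the other 4 lay within 7372 to 7895. The log2 change was 0.99 ± 0.56 (adjusted p = 0.302, exact two-sided permutation p = 0.4, where 3 against 3 libraries cannot go below 0.1). It was 0.62 ± 0.56 in the knockout (adjusted p = 0.484). Both groups carry the intact floxed allele, so the gene is no check of these labels.

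Of 27 genes for glutamine, glutamate and related amino acid enzymes and transporters 5 fell and 0 rose, with a median of -0.46. Oat, ornithine aminotransferase, which links ornithine to glutamate, had 3342, 3096 and 4411 on water and 1560.4, 1732 and 1379 on DSS (log2 change -1.20 ± 0.19, adjusted p = 0.0157). Pycr1, which makes proline from a glutamate product, had 313, 289 and 218 on water and 41.2, 18.3 and 71.6 on DSS (log2 change -2.80 ± 0.50, adjusted p = 0.0193). Slc1a5, a glutamine importer, had 4491, 3970.5 and 5702 on water and 1663, 2254 and 1687 on DSS (log2 change -1.34 ± 0.27, adjusted p = 0.0278), and Slc7a6, an exchanger of basic and neutral amino acids, fell by 1.68 ± 0.34 (adjusted p = 0.0292). Cad, the last of the 5, which uses glutamine to start pyrimidine synthesis, had 1636, 1473 and 977 on water and 693, 611 and 591 on DSS (log2 change -1.08 ± 0.27, adjusted p = 0.0475).

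Among 15 genes of the urea cycle, arginine and polyamines, Sat1, which starts polyamine breakdown, rose from 1409.9, 1275 and 1612 on water to 3359, 3178 and 3054 on DSS (log2 change 1.16 ± 0.17, adjusted p = 0.0125), and Odc1, which starts polyamine synthesis, fell from 3379, 3060.4 and 2772 on water to 1801, 1523 and 1829.9 on DSS (log2 change -0.84 ± 0.20, adjusted p = 0.042). In the knockout the log2 change of Odc1 was -0.07 ± 0.20, and the difference between genotypes did not pass (unadjusted p = 0.0207). Of the 7 calls for glutamine and arginine genes, 4 were made in the knockout, 4 remained with the GC correction, those of Oat, Pycr1, Slc7a6 and Sat1, and 0 without WT_H2O 1 or WT_H2O 2, 2 without WT_DSS 1, 3 without WT_H2O 3 and 4 without WT_DSS 2 or WT_DSS 4 remained when single libraries were left out.

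Replication-dependent histone genes had a negative log2 change in 62 of 64 tested members, and 15 fell, with a median of -1.49 (-0.91 with the GC correction). Hist1h2ac had 344, 433 and 328 on water and 95.1, 44 and 44.5 on DSS (log2 change -2.66 ± 0.39, adjusted p = 0.0125), Hist1h3e 1591, 1454 and 1098 on water and 365, 154 and 109 on DSS (log2 change -2.89 ± 0.46, adjusted p = 0.0157) and Hist1h3d 751, 777 and 636 on water and 189, 86.4 and 46.9 on DSS (log2 change -2.96 ± 0.48, adjusted p = 0.0157). WT_DSS 1 was the DSS library nearest to water in these 3 genes. Most messages of this family end without a poly(A) tail, and the sources do not say how RNA was selected for the libraries. Several histone genes are near-identical, so single values are uncertain. Of 44 small nucleolar and Cajal body RNAs 3 fell, Snord17, Snord22 and Scarna6, with log2 changes of -2.79 ± 0.48, -4.17 ± 0.85 and -2.23 ± 0.52 (adjusted p = 0.018, 0.029 and 0.0391), and each lies within a host gene.

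Among abundant noncoding RNAs 3 more fell. Rn7sk, which holds back transcription elongation, had 166706, 186166 and 148238 on water and 79920.1, 64857 and 42688 on DSS (log2 change -1.46 ± 0.29, adjusted p = 0.0272). Rpph1, the RNA of ribonuclease P, had 97292, 163411 and 77478 on water and 40509.8, 41234 and 20054 on DSS (log2 change -1.73 ± 0.37, adjusted p = 0.0309), and Rmrp, the RNA of a related ribonuclease, 51400.5, 43009 and 26801 on water and 11325, 14483 and 8237 on DSS (log2 change -1.82 ± 0.42, adjusted p = 0.0367). With the GC correction these 3 had log2 changes of -0.82, -0.48 and -0.75 and did not pass (adjusted p from 0.147 to 0.512). The share of structural RNA in the libraries moved with them, and its part in the result was not tested.

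Of 34 nuclear-encoded respiratory chain genes 3 fell, and all 3 calls remained with the GC correction. The median of these 34 genes was -0.18, and 0.003 with the GC correction. Ndufa2, a complex I subunit, had 502, 549 and 407 on water and 167, 117 and 112 on DSS (log2 change -1.89 ± 0.27, adjusted p = 0.0123), and Uqcrq, a complex III subunit, 2238, 2512 and 2789 on water and 1181, 778 and 716 on DSS (log2 change -1.52 ± 0.30, adjusted p = 0.0268). Ndufa4, a cytochrome oxidase subunit, fell by 1.22 ± 0.32 (adjusted p = 0.0498). The 13 mitochondrially encoded proteins had a median of 0.98 (0.42 with the GC correction), and none passed. In 9 of them the groups did not overlap, beside 16.9% of all genes in that direction. Of 76 cytosolic ribosomal protein genes 2 fell, a share of 2.63% that is near the 2.58% of all genes. They were Rps29 at 1942, 1841 and 1206 on water and 589.7, 477 and 279 on DSS (log2 change -1.92 ± 0.42, adjusted p = 0.0331) and Rplp1, an acidic stalk protein, at 10794, 9074 and 6306 on water and 3924, 3731 and 1861 on DSS (log2 change -1.50 ± 0.38, adjusted p = 0.0481). The list median was -0.34. Of 18 immediate early and heat shock genes 1 fell, Nr4a1, a nuclear receptor, at 628, 384 and 198 on water and 130.4, 92.2 and 115 on DSS (log2 change -1.69 ± 0.44, adjusted p = 0.0497). None of 22 genes of the unfolded protein response (median -0.07) and none of 16 Nrf2 targets and metallothioneins (-0.13) passed.

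The mitochondrial aspartate tRNA gene mt-Td had 0.925, 1.38 and 0 on water and 208, 89.7 and 270.1 on DSS (log2 change 6.70 ± 0.79, adjusted p = 0.00661), and none of the other tRNAs in its list of 19 passed. In the knockout mt-Td had 0.867, 0.527 and 1.92 on water and 0.806, 1.36 and 3.13 on DSS, a log2 change of 0.36 ± 0.79. The difference between genotypes was 6.34 ± 1.12, with an unadjusted p of 0.000113, and did not pass adjustment. Of the 26 calls for histones, small RNAs, respiratory chain, ribosomal proteins, mt-Td, Nr4a1 and Pck1, 14 were made in the knockout, 10 remained with the GC correction, and 1 without WT_H2O 1 or WT_H2O 2, 8 without WT_H2O 3 or WT_DSS 2, 10 without WT_DSS 4 and 15 without KO_H2O 3 or WT_DSS 1 remained when single libraries were left out.

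Markers of stroma and of attached tissue did not pass, with 1 exception. Of 8 adipocyte genes Pck1, the gluconeogenic enzyme that colonocytes also express, fell from 2655, 2614 and 5241 on water to 871, 1146 and 1459 on DSS (log2 change -1.55 ± 0.33, adjusted p = 0.0314). The 16 smooth muscle and pacemaker genes had a median of -0.74 and summed to 66646 to 405918 normalized counts on water and 99508 to 123536 on DSS, with WT_H2O 2 the highest. The 19 enteric neuron and glia genes had a median of 1.01, and Nos1, the synthase of inhibitory neurons, stood at 199.8, 631 and 62.6 on water and 1549, 1275 and 1313 on DSS (adjusted p = 0.0841). None of 23 collagens and matrix proteins (-0.18), 18 matrix metalloproteinases and inhibitors (0.41), 16 endothelial genes (0.49), 6 red blood cell genes (1.19), 3 squamous epithelium genes (-0.94) or 1 pancreatic gene (-2.05) passed. These cell types' part in the other results was not tested.

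Among the genes with the most positive changes outside these lists, Abca13, a large lipid transporter, had no read on water and 1996, 331 and 194 on DSS. That is at least 345-fold higher when each water library is set to 3 reads before scaling. Tnfrsf8, which encodes the activation receptor CD30, had 3.70, 2.06 and 0 on water and 402, 237 and 12.4 on DSS (log2 change 5.48 ± 1.37, adjusted p = 0.0458). A gene listed under the symbol Itgam, which overlaps the integrin gene of that name, had 0, 0 and 4.12 on water and 244, 74.7 and 161 on DSS (log2 change 6.39 ± 1.40, adjusted p = 0.0332), and its reads cannot be told apart from those of the integrin gene. Among the most negative were Slc17a2, a phosphate transporter, at 42.6, 42 and 265 on water and 0, 0 and 7.41 on DSS (log2 change -5.28 ± 1.18, adjusted p = 0.0349), and Mal, a raft protein of apical sorting, at 565, 444 and 1080.3 on water and 19.3, 15.8 and 66.7 on DSS (log2 change -4.51 ± 0.97, adjusted p = 0.0315). Rtn4r, a receptor known from neurons, Hapln4, a hyaluronan link protein, Fat2, a large cadherin, Hist1h2be and Hhatl fell with log2 changes from -5.04 to -4.20. With the GC correction 6 of the 10 most positive and 1 of the 10 most negative genes, Ugt2b36, remained called. Of the 10 most positive, 2 without WT_H2O 1 or WT_H2O 2, 4 without WT_DSS 1 and 6 without WT_H2O 3 remained when single libraries were left out, and of the 10 most negative 0 without WT_H2O 1, WT_H2O 2, WT_H2O 3 or WT_DSS 1, 1 without WT_DSS 2 and 3 without KO_H2O 3.

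Among the 10 most abundant genes that rose the log2 changes ran from 0.72 to 3.41, and among the 10 that fell from -1.82 to -1.24. Xdh, xanthine dehydrogenase of purine breakdown, rose from 2050.1, 2229 and 4145 on water to 28103, 12299 and 9815 on DSS (log2 change 2.49 ± 0.47, adjusted p = 0.0243). Myo1a, the brush border myosin, rose from 9532, 9804 and 10132 on water to 18276, 19438 and 17387 on DSS (log2 change 0.90 ± 0.23, adjusted p = 0.0458), and with the GC correction it remained called (adjusted p = 0.0354). Pabpc1, which binds poly(A) tails, and Hnrnpa2b1, a splicing regulator, rose by 0.98 ± 0.23 and 1.07 ± 0.23 (adjusted p = 0.0406 and 0.0314). Cd24a, a surface glycoprotein of immature epithelial cells, fell from 10807, 9778 and 8272 on water to 2520.2, 2039 and 5695 on DSS (log2 change -1.63 ± 0.35, adjusted p = 0.0315), and its change with the GC correction was -1.94 (adjusted p = 0.0345). Rack1, a ribosomal scaffold, fell from 12994, 11139 and 11862 on water to 5368, 5877 and 3775 on DSS (log2 change -1.28 ± 0.30, adjusted p = 0.0391). Lrp1, an endocytic receptor, Hspg2, the basement membrane proteoglycan perlecan, and Ethe1, which detoxifies sulfide in mitochondria, fell by 1.43 ± 0.34, 1.38 ± 0.33 and 1.24 ± 0.29 (adjusted p = 0.0411, 0.0417 and 0.0385), and none of the 3 passed with the GC correction. Of the 10 most abundant genes in each direction, 9 of those that rose and 7 of those that fell were called in the knockout too. When single libraries were left out, 0 without WT_H2O 1, WT_H2O 2 or WT_DSS 1, 2 without WT_H2O 3 or KO_H2O 3, 3 without WT_DSS 2 or WT_DSS 4, 4 without KO_H2O 1 and 6 without KO_DSS 1 remained of those that rose, and 0 without WT_H2O 1, WT_H2O 2 or WT_DSS 1, 1 without WT_H2O 3, 3 without WT_DSS 2 or WT_DSS 4 and 5 without KO_H2O 3 of those that fell.

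Beyond mt-Td, the genes with the smallest p for a difference between genotypes were Ets1, Tnfrsf12a, Themis and Fbxl2, and none passed adjustment. Ets1, a transcription factor of lymphocytes and endothelium, rose in f/f colons with 267, 412 and 466 on water and 752, 781 and 987 on DSS (log2 change 1.16 ± 0.26, adjusted p = 0.0339) and had 747, 555 and 892 on water and 458, 452 and 487 on DSS in the knockout. The difference in log2 change was 1.79 ± 0.36 (unadjusted p = 0.000368). Tnfrsf12a, the TWEAK receptor, had 170.2, 119 and 134 on water and 46.3, 54 and 74.1 on DSS in f/f and 78.9, 58 and 56.7 on water and 176, 81.5 and 138 on DSS in the knockout, a difference of -2.24 ± 0.51 (unadjusted p = 0.000857). Themis, a T cell signalling protein, differed by 6.16 ± 1.46 (unadjusted p = 0.00121), with at most 97.2 normalized counts in an f/f library. Fbxl2, a ubiquitin ligase subunit, differed by 2.24 ± 0.54 (unadjusted p = 0.00147).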

How the data were processed

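Total RNA of colon tissue was extracted with TRIzol and sequenced on an Illumina instrument, per the labels' protocols. The authors deposited log2 values, which per the labels are log2 normalized counts. Undoing the log gave whole reads scaled by 1 factor per library, with 100% of values whole at a tolerance of 0.01, so depth is known (27088540 to 36715740 reads per f/f library). The authors also deposited a table of log2 FPKM, used for an alternative. Another FPKM table held the same 12 columns and 4 columns that match no sample label, and was not used. Per the submitters' processing notes STAR and the builds GRCm38 and mm10 were used. Counter, strand setting, annotation and versions are absent from the labels used here, so reads of overlapping, antisense or near-identical genes cannot be told apart. Among the named genes Ciita, Cxcl10, Noxa1, Duoxa1, Tpsg1, Trpm5, Cyp51, Oat, Ndufa2, Hist1h2be and Fbxl2 also overlap another gene. Their single values are uncertain in the same way.

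Genes whose normalized count averaged 10 or more over all 12 libraries entered limma 3.58.1 (R 4.3.3) as log2(normalized count + 1), with eBayes and a mean-variance trend. All 12 libraries entered 1 fit with a mean per group, and p-values were adjusted by Benjamini-Hochberg at 0.05. Errors of log2 changes are standard errors. This scale understates the change of low genes. The fit was tested on simulated data. Genes were simulated independently, without a GC trend or an outlying library, so the simulation does not speak to those. As an alternative chosen after seeing the data, a lowess curve of each library's log2 deviation on transcript GC was subtracted. Gene coordinates, lengths and GC shares came from the GENCODE annotation of GRCm38 (longest transcript per gene), matched by gene identifier for 93.9% of tested genes, and promoters from RefSeq (GRCm38.p6).

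The genes, gene lists and comparisons were chosen with earlier results of these data known. Lists are described by counts and medians. The text names Glul and Lyz2, the 10 most positive and 10 most negative called genes with a mean of at least 50 in the higher group, the 10 most abundant called genes in each direction, in each list the 4 members of smallest p at most, and the 5 smallest p for the difference between genotypes, leaving out unnamed gene models and antigen receptor segments. Other names are marked as chosen after their values were seen, apart from members given to complete a small count, such as Cad and Irgq. Depth sets the precision of low counts, and p-values cover only the spread between libraries. Single values of some list members are not reported here.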

Additional observations from a re-analysis of the deposited data

How the results depend on the processing

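The count of 1103 changed genes was within 1.5 times of its value with the 6 f/f libraries alone, a minimum mean of 50, the FPKM table, pseudocounts of 0.5 and 8, upper-quartile scaling, quantile normalization and voom, with 971 to 1335 calls. It moved to 664 with no filter, 3558 with sample weights, 459 with no mean-variance trend and 194 with the GC correction, which was chosen after seeing the data. Leaving out 1 library gave 14 to 1566 calls. The cause of these shifts was not tested. No called gene changed sign under any alternative run, but for many of the runs this was fixed in advance. The fits with the 6 f/f libraries alone, no filter, a minimum mean of 50 or no mean-variance trend use the same log2 changes. With 1 library left out, other pseudocounts or sample weights, no sign could change because the groups of every called gene did not overlap. For the difference between genotypes the count was 2 with the FPKM table and with no mean-variance trend, and 0 to 2 with 1 library left out. Replicate numbers 1 and 2 occur in both f/f groups. Deviations of same-numbered libraries from their group means had correlations of 0.014 and 0.102, within the range of the other pairs (-0.166 to 0.15). With 3 libraries a group these values cannot tell whether same-numbered libraries belong together. A fit with a replicate block called 46 genes. The Glul change passed in no alternative, with adjusted p from 0.238 to 0.727. Of the 61 gene lists, 14 were counted as moved with the FPKM table, 9 with the replicate block and 9 with the GC correction. Among list results with 1 library left out, 27 moved and 705 did not. Which lists these were is not given in full here. Medians near 0 flipped sign, among others, for the transport and unfolded protein lists with upper-quartile scaling (0.04 each). The colon epithelium list flipped with quantile normalization (-0.12). With the GC correction the transport, enteroendocrine, immediate early, collagen, respiratory chain and mitochondrial tRNA lists flipped (0.04, 0.02, 0.20, 0.06, 0.003 and -0.49). With 3 libraries a group and a wide spread on DSS, genes with few reads are the least precise.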
